A study of Mus musculus with 3 samples.

Results

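The cells described here were chosen for RNA of genes that are made when a cell copies its DNA and divides. Each cell was scored by its unique molecular identifiers (UMIs, which tag each captured RNA molecule) of 8 genes per 10000 UMIs, namely Mki67, Top2a, Birc5, Ube2c, Cenpf, Pclaf, Ccnb2 and Cdk1. The top 3% of the pooled cells by this score reached 2.22 or more and numbered 81, and those with at least 3 UMIs of the 8 genes were selected. They were 51 of 2702 kept cells, with 10 from day 3, 15 from day 6 and 26 from day 10. Only 31 of the 51 carried UMIs of at least 3 of the 8 genes, while 18 were selected on a single gene, so the label "cycling" did not hold for the whole set and the 51 are called the selected cells below.

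The cells came from a single-cell RNA-seq study of monocytes and macrophages isolated from wounded skin of mice. All mice were males of the inbred strain C57BL6/J. The titles mark them as WT, with no other allele or agent named. Wounds were sampled 3, 6 and 10 days after injury, with 1 library on the 10x Chromium platform per day, each made from cells pooled from 2 mice. With 1 sample per day, no difference between days was tested, and all intervals below are 95% intervals that cover counting error only.

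A dividing cell licenses and copies its DNA in S phase, when MCM helicases, polymerases, histones and enzymes of nucleotide supply are made, and then separates the copies in mitosis, when cyclin B, Cdk1, spindle motors and kinetochore proteins are made. Monocytes enter a wound from the blood and become macrophages there, and macrophages and dendritic cells can also divide in tissue. Of the 4 identity genes read here, Ly6c2 marks classical monocytes, C1qa encodes a chain of complement C1q made by macrophages, Cd209a encodes a lectin of monocyte-derived dendritic cells and Retnla encodes a secreted protein of alternatively activated and some tissue macrophages.

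The promoters of the score genes are shown first, since genes of the second wave of the cycle share sequence elements that the identity genes can be compared against. Windows from 250 bases before to 50 bases after the start site were taken from RefSeq (GRCm38.p6) and searched on both strands for the cell cycle homology region (CHR, read as TTTGAA or TTTAAA), for CCAAT and for E2F sites (TTCCCGC or TTGGCGC). The reverse of CCAAT can overlap TTGGCGC, which occurred in 0.447% of all promoters, and TTTAAA reads the same on both strands. Capitals mark the matches in Ccnb2 (cyclin B2, chr9:70421505-70421804, minus strand), Ube2c (the ubiquitin-conjugating enzyme of mitotic exit, chr2:164769679-164769978, plus strand), Top2a (topoisomerase II alpha, chr11:99024140-99024439, minus strand) and, for contrast, Retnla (chr16:48842359-48842658, plus strand).
Ccnb2: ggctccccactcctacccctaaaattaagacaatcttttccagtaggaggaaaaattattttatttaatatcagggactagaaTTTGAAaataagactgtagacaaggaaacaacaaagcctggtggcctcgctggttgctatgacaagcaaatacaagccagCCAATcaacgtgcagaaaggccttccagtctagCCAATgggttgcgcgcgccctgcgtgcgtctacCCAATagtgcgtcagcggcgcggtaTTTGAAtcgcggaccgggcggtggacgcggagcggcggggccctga
Ube2c: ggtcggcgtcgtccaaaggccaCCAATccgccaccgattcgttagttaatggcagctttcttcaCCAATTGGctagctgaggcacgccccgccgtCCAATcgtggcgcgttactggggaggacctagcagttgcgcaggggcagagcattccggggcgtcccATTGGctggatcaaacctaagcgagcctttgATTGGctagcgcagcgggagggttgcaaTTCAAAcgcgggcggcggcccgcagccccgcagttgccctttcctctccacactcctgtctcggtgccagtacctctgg
Top2a: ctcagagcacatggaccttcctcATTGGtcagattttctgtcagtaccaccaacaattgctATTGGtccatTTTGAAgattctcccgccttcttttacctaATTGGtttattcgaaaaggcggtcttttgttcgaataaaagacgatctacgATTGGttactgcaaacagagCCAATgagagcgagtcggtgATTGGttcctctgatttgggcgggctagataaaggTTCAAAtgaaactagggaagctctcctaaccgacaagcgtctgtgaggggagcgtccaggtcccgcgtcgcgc
Retnla: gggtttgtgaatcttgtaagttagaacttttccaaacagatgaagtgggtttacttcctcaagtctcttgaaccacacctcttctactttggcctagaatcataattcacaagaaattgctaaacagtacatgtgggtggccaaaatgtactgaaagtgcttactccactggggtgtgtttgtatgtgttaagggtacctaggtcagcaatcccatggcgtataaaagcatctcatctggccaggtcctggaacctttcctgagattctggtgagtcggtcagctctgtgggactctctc

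Ccnb2 held 2 CHR and 3 CCAAT matches, Ube2c 1 and 6, Top2a 2 and 6, and the Retnla window held no match to any of the 3 elements. A CHR match stood in 8 of the 8 score gene promoters against 27.6% of 32851 promoters, and a CCAAT match in 7 of 8 against 37.4%. Both together stood in 87.5% of the score gene promoters and in 10.7% of all. In the spindle, kinetochore and cytokinesis list, 80.0% of 35 promoters had a CHR match. In the replication licensing and fork list, 17.4% of 23 promoters had one, and 60.9% had an E2F match against 6.81% of all. The elements did not split cleanly between the sets. A CCAAT match stood in 60.9% of the replication promoters too, and an E2F match in 3 of the 8 score gene promoters (37.5%). Of the identity genes, 3 of 4 were matched in the table by symbol, with 4 promoters, and none held a CHR, CCAAT or E2F match. A match is a description of these letters only.

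The values that chose the cells are given as a description. The 10 day 3 cells had scores from 2.22 to 36.3 (median 5.21), the 15 day 6 cells from 2.63 to 61.7 (median 28.2) and the 26 day 10 cells from 2.55 to 98.3 (median 12.7). Just inside the threshold were cells at 2.22, 2.35 and 2.48, with 3, 5 and 4 score UMIs, and just outside were cells at 2.17, 2.13 and 2.06, with 3, 4 and 4. Another 30 cells lay over the threshold with only 1 or 2 score UMIs, and 18 with at least 3 score UMIs lay under it. Of the kept cells, 86.8% had no UMI of the 8 genes.

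The selected cells were 1.14% of the kept cells on day 3 (10 of 879, exact binomial interval 0.547 to 2.08), 2.72% on day 6 (15 of 551, 1.53 to 4.45) and 2.04% on day 10 (26 of 1272, 1.34 to 2.98). The 3 intervals overlapped. After each cell was thinned to 2000 UMIs, 2.39% of the day 3 cells, 5.44% of the day 6 cells and 5.42% of the day 10 cells kept at least 1 score UMI, against 9.78%, 18.5% and 13.2% before thinning. The interval for day 3 after thinning (1.48 to 3.63) lay below those of day 6 (3.70 to 7.68) and day 10 (4.24 to 6.82). Of these cells, 8 of 21, 12 of 30 and 23 of 69 were selected cells. With at least 3 score UMIs after thinning, the day 3 interval (0.0276 to 0.819) lay below that of day 6 (0.874 to 3.31). It overlapped that of day 10 (0.545 to 1.74).

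How many of the 8 genes a selected cell carried divided the set. The 31 cells with at least 3 score genes, called several-gene cells below, had 4 to 239 score UMIs and a median score of 28.2. The 18 single-gene cells had 3 to 9 score UMIs and scores of 2.35 to 13.1. Mki67, the proliferation antigen Ki-67, was the gene in 17 of the 18 and Ube2c in the other. A further 2 cells carried 2 score genes. Genes outside the score divided the cells in the same way: UMIs of the lists for replication, nucleotide supply, mitosis and spindle came to a median of 94.7 per 10000 in the several-gene cells (11.4 to 181) and of 7.93 in the single-gene cells (1.56 to 14.9). The other kept cells had a median of 6.52 per 10000 (0 to 46.8), a range that holds every single-gene cell.

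Day 3 had 6 several-gene cells (0.683% of the kept cells, 0.251 to 1.48), day 6 had 9 (1.63%, 0.750 to 3.08) and day 10 had 16 (1.26%, 0.721 to 2.03). The 3 intervals again overlapped. Birc5, the survivin subunit of the chromosomal passenger complex, had UMIs in 30 of the 31 and in none of the other 20 selected cells. Cenpf, a kinetochore protein, had them in 26, and only 5 of the 2651 other cells had a Cenpf UMI. Top2a, which untangles replicated DNA, was found in 25 of the 31 and in 73 other cells. Mki67 was found in 29 of the 31 and in 132 other cells. Since 20 of the 51 cells had 1 or 2 score genes, values for the 31 are given beside many of those for the 51. This division was chosen after the values were seen.

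**Figure D1:**
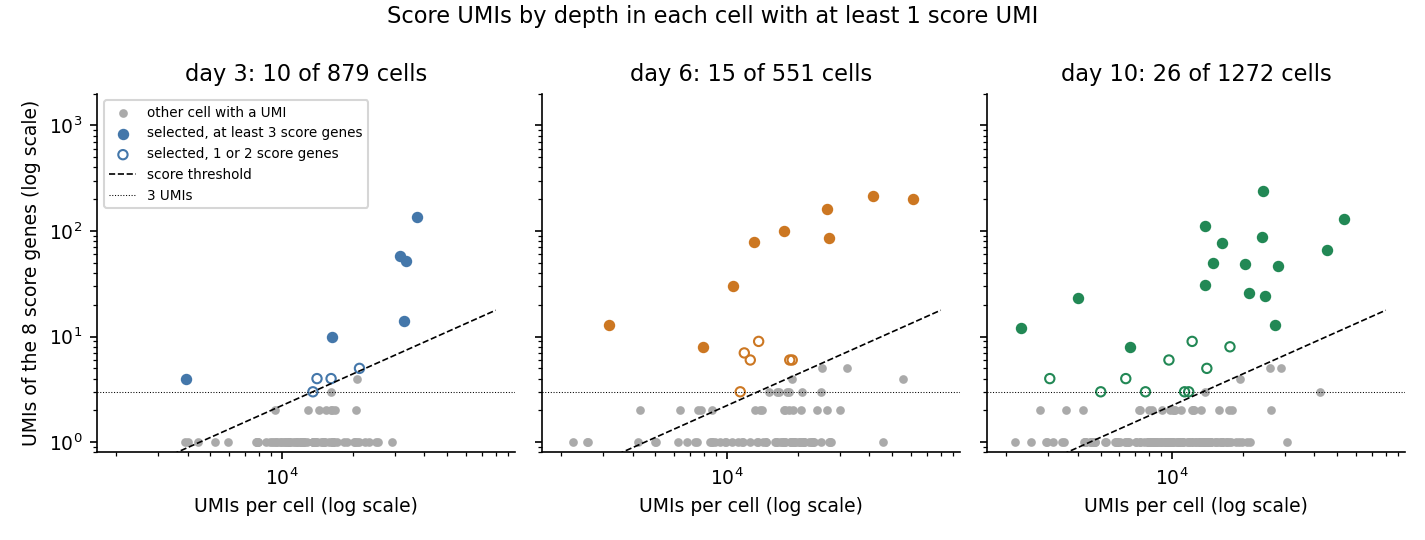
Score UMIs (vertical, log scale) against all UMIs of a cell (horizontal, log scale) for each kept cell with at least 1 score UMI, by day. Filled points are the 6, 9 and 16 several-gene cells, open points the selected cells with 1 or 2 score genes, and the dashed and dotted lines are the score threshold of 2.22 and the minimum of 3 UMIs. Open points lie near the lines, with at most 9 score UMIs, and filled points reach 239.

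Total depth moved with the selection. Selected cells had a median of 18754.5, 13628 and 13960.5 UMIs on days 3, 6 and 10, against 10735, 12478.5 and 8712.5 in the other kept cells, and the 31 several-gene cells had a median of 21251. When the score was taken after thinning all cells to 2000 UMIs, with the minimum of 3 score UMIs still read before thinning, 8, 14 and 26 cells were selected. Only 2, 10 and 13 cells of the 3 days kept at least 3 score UMIs after thinning. Scrublet called 9 of the kept cells doublets and none of the 51. The day 6 and day 10 libraries shared 2 barcodes, 1 of which was a selected cell in one of them, and no other pair of libraries shared any. The libraries held 1472, 1196 and 2209 barcodes with 11199361, 9273960 and 13972817 UMIs. The leukocyte gene Ptprc (CD45) had UMIs in 51 of the 51 selected cells, the signalling adaptor Fcer1g in 51, Tyrobp in 49, Lyz2 in 48, Itgam in 44 and Csf1r in 41. In the other kept cells the shares were 91.4%, 98.0%, 97.9%, 96.6%, 90.5% and 82.2% in the same order, so these genes did not set the selected cells apart. T cell and mast cell marker lists had 0 UMIs in the selected cells.

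UMIs were summed over the selected cells and over the other kept cells of a day and divided by all UMIs of the same cells to give CPM, a level that does not grow with the number of cells summed. A gene was compared where 1 of the 2 sums reached 50 CPM, and a difference is called at 2-fold or more. On day 3, 11.7% of 3149 genes were at least 2-fold higher in the selected cells and 12.2% at least 2-fold lower. On day 6 it was 12.9% and 7.54% of 3592 genes, and on day 10 it was 11.2% and 8.17% of 3243. With the several-gene cells alone, set against all other kept cells of the day, 17.6% were higher and 17.1% lower on day 3, 20.2% and 13.3% on day 6, and 16.2% and 14.1% on day 10. The median log2 ratio over all genes compared was 0.11, 0.16 and 0.09 on the 3 days, and 0.21, 0.30 and 0.20 with the several-gene cells alone.

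Genes of the cycle outside the score were higher in every list, which is near to what chose the cells and is given as a description. A cycle gene that other cells hardly make passes the 50 CPM limit only through the selected cells, so the sums over all genes of a list carry more than the counts. The spindle, kinetochore and cytokinesis list summed to 4403, 7610.1 and 5218 CPM in the selected cells on days 3, 6 and 10 and to 608, 852 and 688 in the others. That is 7.24-fold (6.76 to 7.75), 8.93-fold (8.50 to 9.38) and 7.58-fold (7.23 to 7.94). Nusap1, which bundles spindle microtubules, stood at 86.2, 234 and 157 CPM in the selected cells and at 0.210, 0.290 and 0.0865 in the others. Hmmr, a spindle protein, was at 59.0, 105 and 81.9 against 0.105, 0.145 and 0.173. These genes were close to absent outside the selection on each day.

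The mitotic kinase, cyclin and checkpoint list was 4.37-fold higher (3.87 to 4.93) on day 3, 9.02-fold (8.29 to 9.82) on day 6 and 6.60-fold (6.11 to 7.13) on day 10. Ccna2, cyclin A2, had 28, 40 and 30 UMIs in the selected cells, or 127, 136 and 68.3 CPM, against 0.210, 0 and 0.0865 CPM in the others. Ccnb1, cyclin B1, was at 45.4, 95 and 66.0 CPM against 0.315, 0 and 0.346. Both cyclins were thus found almost only in selected cells, in 3, 6 and 9 cells for Ccna2 and 3, 3 and 8 for Ccnb1.

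Genes of DNA copying were higher by similar factors. The replication licensing and fork list was 6.57-fold higher (5.58 to 7.68), 4.42-fold (3.92 to 4.99) and 7.91-fold (7.23 to 8.64) on days 3, 6 and 10. Mcm7, a subunit of the replicative helicase, was at 81.7, 102 and 105 CPM against 3.68, 10.1 and 6.49, and Lig1, the ligase that seals new strands, at 45.4, 78.0 and 109 against 3.05, 7.24 and 7.70. The nucleotide supply list was 7.16-fold, 6.42-fold and 9.18-fold higher. Rrm2, the small subunit of ribonucleotide reductase, was at 123, 102 and 159 CPM against 0.210, 1.01 and 0.346. Tk1, thymidine kinase, was at 77.2, 102 and 95.6 against 0.946, 2.03 and 2.51.

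Chromatin genes made up the most UMIs of the cycle lists, at 7277, 9513 and 9618 CPM in the selected cells against 1717, 1755 and 1797 in the others. Stmn1, the microtubule-destabilising protein stathmin, was at 540.2, 861 and 883 CPM against 5.15, 16.2 and 15.1, which is 105-fold (74.6 to 149), 53.1-fold (42.4 to 67.0) and 58.7-fold (48.9 to 70.5). It had UMIs in 5, 9 and 17 selected cells. The histone gene Hist1h2ap, made in S phase, was at 249.7, 573 and 849 CPM against 5.99, 5.36 and 10.4, and its UMIs came from 3, 5 and 15 cells. Near-identical histone genes can share UMIs, so this value is uncertain for the single gene.

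The balance of copying and dividing differed from cell to cell. Numbering the cells by score within a day, cell 2 of day 3 had 163 UMIs of the replication and nucleotide lists and 122 of the mitosis and spindle lists, cell 16 of day 10 had 76 and 27, and cell 1 of day 10 had 14 and 357. Of the 31 several-gene cells, 7 had more replication than mitosis UMIs, 1 on day 3, 0 on day 6 and 6 on day 10, and 24 had more mitosis UMIs. The 9 day 6 several-gene cells all lay on the mitosis side. Without the 3 tubulin genes Tubb5, Tuba1b and Tubb4b, which were left out of this count, the mitosis and spindle lists hold 59 genes against 33, so the counts place cells relative to each other and assign no phase. Phase calls were not made.

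**Figure D2:**
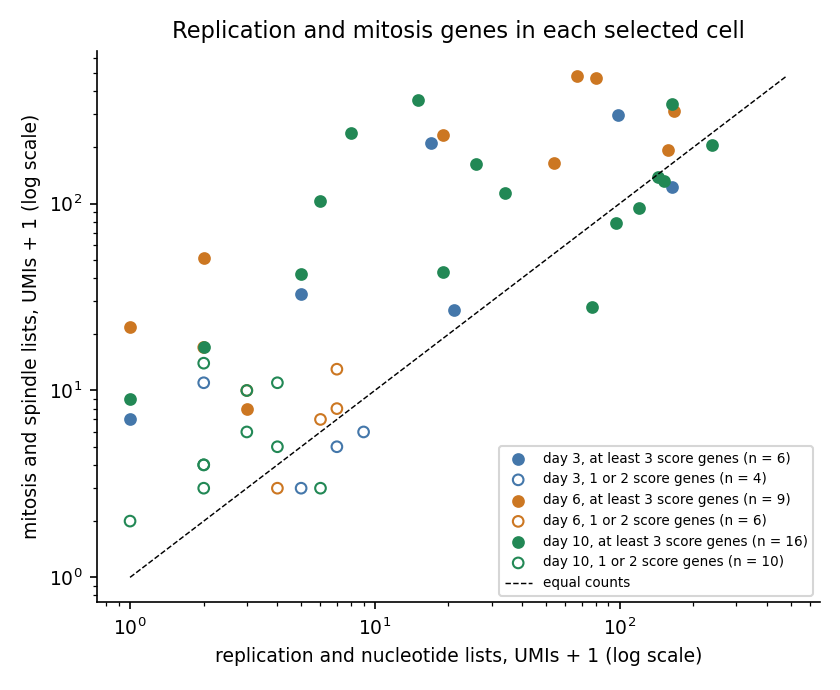
UMIs + 1 of the mitosis and spindle lists (vertical) against those of the replication and nucleotide lists (horizontal) in each of the 51 selected cells, both axes on a log scale, coloured by day. Filled points are the 31 several-gene cells, open points the 20 with 1 or 2 score genes, and the dashed line marks equal counts. Open points cluster at the lower left, and filled points spread over both sides of the line.

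The identity genes divided the selected cells into kinds that differed by day. With at least 3 UMIs of an identity gene as the limit, 14 of the 51 carried C1qa alone (0, 5 and 9 on days 3, 6 and 10), 12 carried Cd209a alone (5, 3 and 4), 9 carried Retnla alone (2, 2 and 5), 1 day 3 cell carried C1qa with Retnla, 2 carried Ly6c2 (1, 1 and 0) and 13 carried none of the 4 (1, 4 and 8). The several-gene cells held 7 with C1qa, 7 with Cd209a, 9 with Retnla, 1 with both C1qa and Retnla, 1 with Ly6c2 and 6 with none. C1qa accounted for more of the 51 cells than any other identity gene, and Retnla for more of the 31.

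As a share of all kept cells of the same kind, pooled over the days, the selected share was highest for Retnla. Of the 28 cells with Retnla alone, 9 were selected (32.1%, 15.9 to 52.4), and each of the 9 was a several-gene cell. Of 887 cells with C1qa alone, 14 were selected (1.58%, 0.866 to 2.63) and 7 were several-gene cells (0.789%, 0.318 to 1.62). Of 352 cells with Cd209a alone, 12 were selected (3.41%, 1.77 to 5.88) and 7 were several-gene cells (1.99%, 0.803 to 4.05). Of 401 cells with Ly6c2 alone, 2 were selected (0.499%, 0.0605 to 1.79). Of 921 cells with none of the 4, 13 were selected (1.41%, 0.754 to 2.40). The interval for Retnla cells lay above those of these other 4 kinds. It overlapped that of the cells with both C1qa and Retnla, of which 1 of 13 was selected (7.69%, 0.195 to 36.0). By day, and with cells that also carried another identity gene counted in, 3 of 7 Retnla cells were selected on day 3 (42.9%, 9.90 to 81.6), 2 of 17 on day 6 (11.8%, 1.46 to 36.4) and 5 of 24 on day 10 (20.8%, 7.13 to 42.2). Of the cells without Retnla, 0.803% (0.323 to 1.65), 2.43% (1.30 to 4.13) and 1.68% (1.04 to 2.56) were selected, so the intervals were apart on days 3 and 10 and overlapped on day 6. With at least 10 Retnla UMIs as the limit, 2 of 4, 2 of 13 and 5 of 22 cells were selected on days 3, 6 and 10. The 28 Retnla cells were also deep, with a median of 19513 UMIs against 15977 in the Cd209a cells and 8655 in the C1qa cells.

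**Figure D3:**
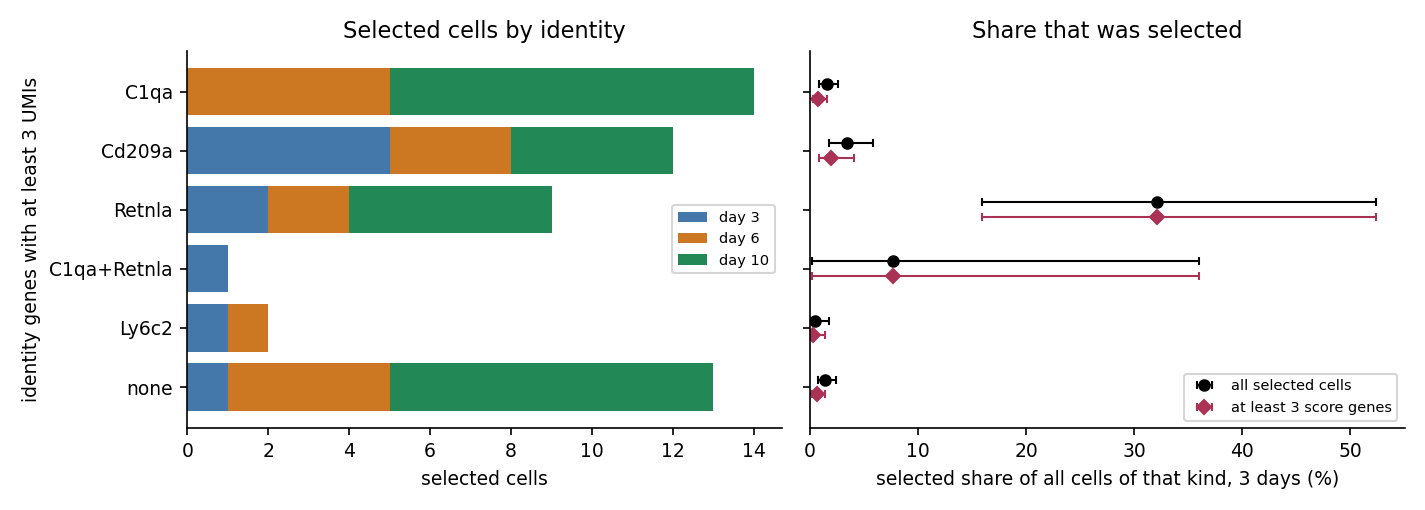
Left, the number of selected cells (horizontal) by identity genes with at least 3 UMIs, stacked by day. Right, the selected share of all kept cells of that kind over the 3 days in percent, with 95% exact binomial intervals, as circles for the 51 cells and diamonds for the 31 several-gene cells. The Retnla share of 32.1% is the same in both and lies to the right of the C1qa, Cd209a and Ly6c2 shares.

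Retnla was found in few selected cells but at high counts. On day 3, 3 of the 10 cells had 173, 28 and 8 UMIs, on day 6, 3 of 15 had 48, 19 and 2, and on day 10, 6 of 26 had 375, 145, 116, 51, 18 and 1. As a sum this was 949 CPM against 14.2 in the other cells on day 3, a ratio of 66.8 (53.6 to 83.6), of which 1 cell gave 173 of 209 UMIs. On day 6 it was 234 against 189 CPM, a ratio of 1.24 (0.958 to 1.58), and on day 10 it was 1606 against 434 CPM, a ratio of 3.70 (3.42 to 4.01). Retnla was thus called higher on days 3 and 10, and its day 6 interval included no difference. With the several-gene cells alone the ratios were 95.5, 1.78 and 4.82. The type 2 activation list, which holds Retnla, did not rise with it. In the selected cells it was at 0.933, 0.730 and 0.955 of the level of the others on days 3, 6 and 10. Of its genes, 3 of 8, 1 of 7 and 2 of 7 were called higher and 3, 2 and 2 lower. In the several-gene cells the list was at 1.14, 0.452 and 0.761. After thinning, 30.0% of the selected cells had a Retnla UMI on day 3 (6.67 to 65.2), 6.67% on day 6 and 23.1% on day 10 (8.97 to 43.6), against 0.230%, 2.61% and 2.49% of the others. When the mitotic list chose the cells in place of the 8 genes, 4.17%, 6.67% and 13.9% of the selected cells had Retnla, so the day 3 share depended on the score genes.

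Other genes found in most Retnla cells were higher in the same sums. Fcrls, an Fc receptor-like gene of some tissue macrophages, was at 141, 176 and 459.6 CPM in the selected cells and at 5.15, 92.1 and 65.2 in the others, which is 27.3-fold (16.8 to 43.7), 1.92-fold (1.41 to 2.54) and 7.05-fold (6.00 to 8.24). Ear2, a ribonuclease gene, was 4.11-fold, 1.56-fold and 8.53-fold higher, and Clec4b1, a C-type lectin gene, 8.70-fold, 1.10-fold and 3.75-fold. Each was called on days 3 and 10 and stayed under 2-fold on day 6. Fcrls was called on day 6 too in the several-gene cells, with ratios of 39.0, 2.75 and 9.17, and Ear2 and Clec4b1 were at 1.84 and 1.05 on that day. On day 3, cell 3, which had 173 Retnla UMIs, gave 23 of the 31 Fcrls UMIs. The largest Clec4b1 count of day 3, 31 UMIs, was in cell 2, which had 0 Retnla UMIs. Among the 9 several-gene cells with Retnla alone, 8 had Fcrls UMIs (median 29), 9 had Ear2 and 9 had Ccr2, the receptor by which monocytes leave the bone marrow. Among the 19 cells with Retnla alone outside the selection, 18 had Fcrls, 15 had Ear2 and 19 had Ccr2. Of the remaining 2632 cells, 10.4% had Fcrls and 4.83% had Ear2, at a lower median depth of 9789.5 UMIs. Whether the 9 and the 19 differed was not tested.

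Other genes were low in both sets of cells with Retnla alone, which leave out cells that also carried C1qa, Cd209a or Ly6c2. With such cells counted in, the unselected Retnla cells of day 10 had a mature macrophage list at 7307 CPM. In the 19 unselected cells with Retnla alone, pooled over days, it was at 1187 CPM. Arg1, the arginase of wound macrophages, was at 8.18 CPM in the 9 selected Retnla cells and at 9.32 in the 19 others, against 1837 in the remaining cells, and Apoe was at 61.4 and 52.8 CPM against 6407. MHC class II was present, with Cd74 at 10893 and 16566 CPM. Retnla itself was lower in the 9 than in the 19, at 3982 against 15994 CPM, with 18 to 375 UMIs a cell against 4 to 1828. This comparison of Retnla cells was chosen after values were seen.

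Cd209a was the most frequent identity gene of the day 3 selected cells. After thinning, 5 of 10 had a UMI (interval 18.7% to 81.3%) against 12.1% of the others (9.99 to 14.4). On day 6 the shares were 13.3% and 15.3%, and on day 10 they were 15.4% and 12.3%. The 5 day 3 cells had 34, 34, 31, 31 and 14 UMIs, but only 2 of them were several-gene cells. Among the 6 several-gene cells of day 3 the share was 33.3% (4.33 to 77.7), and the summed level was 289.9 CPM, a ratio of 0.886 in place of 2.05 (1.72 to 2.42) for the 10. With the mitochondrial limit at 20%, 7 cells were selected on day 3 and 14.3% had Cd209a.

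MHC class II genes, which present antigen and are high in dendritic cells, were higher on day 3. The list summed to 46420.4 CPM in the selected cells against 19038 (2.44-fold, 2.39 to 2.49), and 6 of 8 genes were called. On day 6 it was 33194 against 31723 CPM and on day 10 it was 27488 against 23902, with 0 of 8 called higher on either day. H2-DMa, a peptide-loading chaperone, was at 767, 899 and 544 CPM against 317, 493 and 341. Batf3, a transcription factor of dendritic cells, was 8.04-fold (5.66 to 11.2), 1.58-fold (0.922 to 2.54) and 3.95-fold (2.95 to 5.20) higher. The conventional dendritic cell type 1 list that holds Batf3 was at 2.06, 1.23 and 1.93. However, 5, 4 and 4 of its 9 markers were at 0 in the selected cells, Clec9a on days 3 and 6 and Gcsam on each day among them. The mature dendritic cell list was lower, at 0.477, 0.371 and 0.335. For the several-gene cells the MHC class II list was 2.16-fold, 0.986-fold and 1.37-fold.

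C1qa was found mostly in selected cells of days 6 and 10. After thinning it was found in 10.0%, 40.0% and 34.6% of the selected cells and in 14.8%, 46.3% and 48.2% of the others, and the intervals overlapped on each day. Its level was 36.3, 855 and 503 CPM against 293, 1283 and 1277, ratios of 0.124 (0.0535 to 0.245), 0.666 (0.585 to 0.755) and 0.394 (0.343 to 0.450). Among several-gene cells the shares after thinning were 16.7%, 55.6% (21.2 to 86.3) and 18.8% (4.05 to 45.6), and the ratios of the level were 0.177, 0.917 and 0.272. The day 6 share thus lay above that of the others in the several-gene cells and below it in the 15, with overlapping intervals in both. On day 3 all 8 C1qa UMIs came from 1 cell. Of the 7 several-gene cells with C1qa alone, 4 were from day 6, with 70, 66, 66 and 36 UMIs, and 3 from day 10, with 80, 18 and 16. Cells 2, 8 and 9 of day 6 and cell 2 of day 10 also had 10, 15, 23 and 6 UMIs of Cd163, the haemoglobin scavenger receptor of resident macrophages.

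Ly6c2 was scarce in the selected cells on the day on which it was common elsewhere. On day 3 it was found after thinning in 1 of 10 selected cells (10.0%, 0.253 to 44.5) and in 348 of 869 others (40.0%, 36.8 to 43.4), and its level was 18.2 against 584 CPM, a ratio of 0.0311 (0.00848 to 0.0797). None of the 314 day 3 cells with Ly6c2 alone was a several-gene cell. On day 6 its level was 189.9 against 54.0 CPM, but 55 of the 56 UMIs came from cell 1, which also had 16 UMIs of the natural killer cell receptor Ncr1. On day 10 it had 1 UMI in 26 cells. As a reference for free RNA, the 15 kept cells with at least 2 UMIs of both Ccr7 and Fscn1, genes of migrating dendritic cells, had Ly6c2, Cd209a and Retnla in none after thinning, which allows up to 3 of 15, and C1qa in 1 (6.67%, 0.169 to 31.9). The 1 reference cell with C1qa held all 119 C1qa UMIs of the 15, so that share rests on a single cell with a high count. The median depth of the 15 was 12710 UMIs against 14961 in the selected cells.

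**Figure D4:**
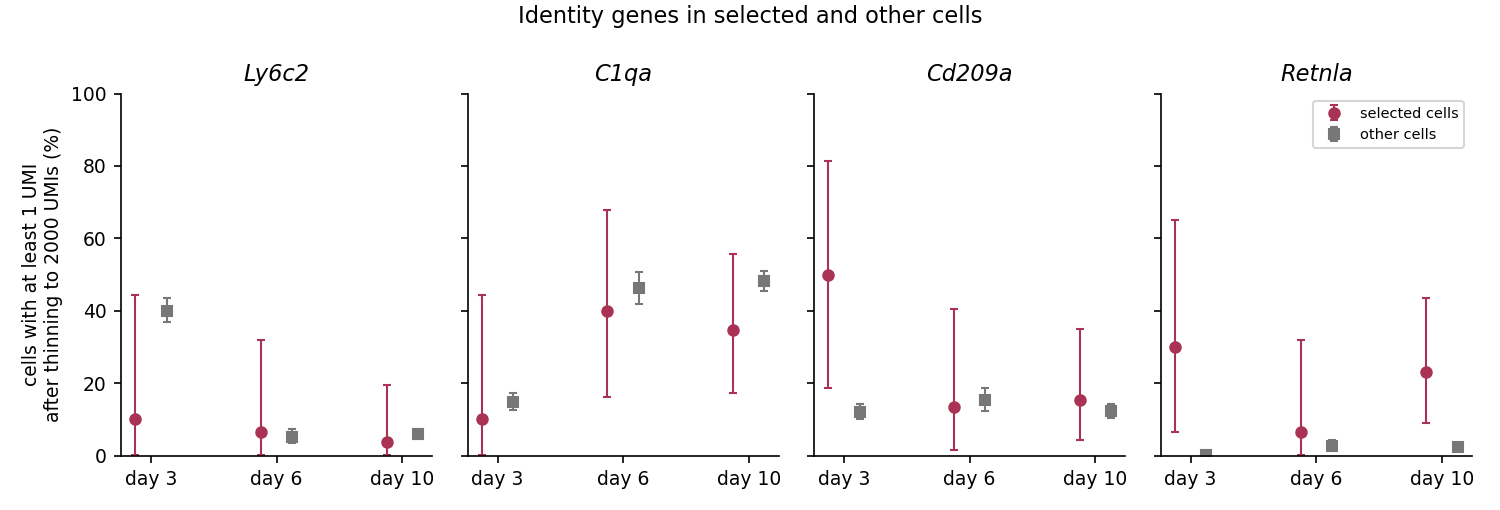
Percent of cells with at least 1 UMI of Ly6c2, C1qa, Cd209a and Retnla after thinning each cell to 2000 UMIs, by day, for selected cells (circles) and other kept cells (squares), with 95% exact binomial intervals. Selected and other intervals do not overlap for Cd209a and Retnla on day 3 and for Retnla on day 10.

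Some selected cells carried markers of other cells. Cell 1 of day 6, with 163 score UMIs, had 0 UMIs of Lyz2, Cd74 and Csf1r beside its Ncr1, and it was the sole several-gene cell with Ly6c2. It had 31 UMIs of Fcer1g, so that gene does not show a selected cell to be myeloid. Cell 6 of day 6 had 61125 UMIs, the most of the 51, with 95 UMIs of Cd207, the langerin of Langerhans cells, and cells 11, 15 and 25 of day 10 had 5, 3 and 11. The Langerhans cell list had at least 3 UMIs in 1 of 10, 1 of 15 and 6 of 26 selected cells against 0.345%, 4.66% and 1.85% of the others, with a range of 0 to 228 UMIs on day 6 and 0 to 114 on day 10, and Cd207 and Epcam at 0 on day 3. This limit also took in cells without these 2 genes. Of the 6 day 10 cells, cells 1, 8 and 16 had 0 UMIs of Cd207 and Epcam and 51, 116 and 145 of Retnla. Cells 11 and 15 had 0 UMIs of Epcam, and cell 25 had 10. The day 3 cell was cell 3, which had 173 Retnla UMIs. Cell 21 of day 10 had 214 of the 216 day 10 UMIs of Ctsk, cathepsin K, and 100 of the 106 of Acp5, enzymes known from osteoclasts. These cells were singled out after their values were seen. Leaving out the 5 cells with at least 3 UMIs of Ncr1 or Cd207 left 10, 13 and 23 selected cells and 0% with Ly6c2 on day 6.

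Neutrophil markers were low. The list had 0 UMIs in the 10 day 3 cells, at least 3 in 1 of 15 on day 6 and in 2 of 26 on day 10, against 10.0%, 17.5% and 10.0% of the others, and Cxcr2, Retnlg and Ly6g were at 0 on each day. The list of granulocyte and monocyte progenitors, which divide in the bone marrow, had at least 3 UMIs in 2, 0 and 0 selected cells. Of the other cells, 5.06%, 2.43% and 1.61% had as many. The 9 UMIs of this list on day 3 came from Cd34 and Kit, and its level was 1.05 of that of the others (0.478 to 2.02). Elane, Prtn3, Ctsg and Gfi1 were at 0 in the selected cells on each day.

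Beyond the cycle lists, 61 of the 111 genes that were at least 2-fold higher on all 3 days lay outside them, of 2519 genes at 50 CPM on each day. Knstrn, a kinetochore-linked adaptor, was at 72.6, 98.3 and 81.9 CPM against 1.05, 2.03 and 1.82, which is 69.1-fold (29.5 to 170.3), 48.5-fold (24.8 to 99.4) and 45.1-fold (25.6 to 81.3). Cbx5, the heterochromatin protein HP1 alpha, was 15.9-fold (8.70 to 27.7), 6.86-fold (4.59 to 10.0) and 6.67-fold (4.49 to 9.67) higher. Tipin, which protects the replication fork, was 10.3-fold, 5.86-fold and 5.45-fold higher, Topbp1, which activates the replication checkpoint, 7.03-fold, 2.93-fold and 6.07-fold, and Nucks1, a chromatin protein, 6.27-fold, 6.26-fold and 3.95-fold. Fcrls and Retnla were among the 5 highest genes outside the cycle lists by their mean log2 ratio. Another 50 genes were at least 2-fold lower on all 3 days. As with the cycle lists, a gene that other cells hardly make passes the 50 CPM limit only through the selected cells. The counts of higher and lower genes are therefore not set against each other.

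Ribosome biogenesis genes were higher by less. The list summed to 2846, 3066 and 3657 CPM against 1743, 2101 and 2097, or 1.63-fold, 1.46-fold and 1.74-fold, and 2 of 8, 1 of 9 and 5 of 11 genes were called. Ran, the GTPase of nuclear transport and spindle assembly, was at 536, 556 and 605 CPM against 198, 194 and 192 and was called on each day. In the several-gene cells 5 of 10, 6 of 12 and 8 of 13 were called. Oxidative phosphorylation genes had ratios of 1.22, 1.13 and 1.33, with 0 of 19, 0 of 19 and 1 of 19 called higher. Atp5b, a subunit of ATP synthase, was 1.67-fold, 1.59-fold and 1.53-fold higher. Glycolysis genes had ratios of 0.837, 0.765 and 0.849. Oxidative phosphorylation was at 1.39, 1.26 and 1.51 in the several-gene cells, with 4 of 19 genes called higher on day 10, and glycolysis at 0.891, 0.706 and 0.634, with 1 of 12, 5 of 13 and 4 of 12 called lower.

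Among regulators of the cycle, E2f8, a repressor of the E2F family made in S phase, was at 22.7, 54.3 and 47.8 CPM against 3.26, 3.47 and 2.34, and Tfdp1, the E2F partner, at 63.6, 57.7 and 52.3 against 14.5, 17.1 and 13.5. Tfdp1 was called on each day, and E2f8 reached 50 CPM and was called on day 6. The list of cycle brakes had a median log2 ratio of -0.37, -0.27 and -0.58 in the 51 cells and of -1.61, -1.83 and -1.72 in the several-gene cells, whose sums were 0.407, 0.246 and 0.345 of those of other cells. Btg1, an antiproliferative gene, was at 445, 753 and 758 CPM in the 51 against 1043, 1113 and 1126 in the others, and at 348, 111 and 264 CPM in the several-gene cells. Cdkn2c, the inhibitor p18 of the G1 kinases, went the other way, at 27.2, 54.3 and 31.9 CPM against 3.05, 3.19 and 2.94. Against all other cells, the several-gene cells thus had less of most brakes and more of Cdkn2c. Rbl1 was also higher in them (7.37-fold on day 6 and 7.06-fold on day 10). Among cells with C1qa alone, the several-gene cells had 6 of 11 brakes called lower and 3 higher, with the list at 0.296. Among cells with Cd209a alone it was 2 of 10 lower and 3 higher, at 0.632. Among cells with Retnla alone it was 2 of 6 lower and 1 higher, at 0.692.

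Of the growth factor receptors, 2 of 6, 1 of 7 and 1 of 5 genes were called lower on days 3, 6 and 10 and none higher. The list had median log2 ratios of -0.39, 0.08 and -0.34, and of -0.71, 0.20 and -0.69 in the several-gene cells. Il4ra, the receptor chain for interleukin-4, was called lower on each day, at 72.6, 67.8 and 50.1 CPM against 152, 147 and 181. Csf3r, the receptor for G-CSF, had 1 UMI in the day 3 cells against 52.7 CPM, a ratio of 0.0862 (0.00218 to 0.482). Csf2ra, a receptor chain for GM-CSF, was at 199.7, 288 and 229.8 CPM against 225, 178 and 163, and Ccr2 was at 722, 621 and 658 CPM against 811, 397 and 484. Neither reached 2-fold on any day. S100a4, abundant in monocytes, was at 2755, 2679 and 1975 CPM against 3028, 2002 and 1929, also under 2-fold.

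Genes of mature macrophages were lower in the selected cells. The list summed to 772, 6369 and 4940 CPM against 6256, 14340.2 and 17479, ratios of 0.123 (0.105 to 0.143), 0.444 (0.424 to 0.465) and 0.283 (0.271 to 0.295), and 10 of 12, 7 of 14 and 11 of 14 genes were called lower. Apoe, the lipid carrier, was at 22.7, 2529.9 and 1568 CPM against 2877, 6666 and 8981, ratios of 0.00789 (0.00256 to 0.0184), 0.380 (0.353 to 0.408) and 0.175 (0.162 to 0.188). Fcgr1, a high-affinity Fc receptor, was at 9.08, 33.9 and 45.5 against 610.5, 173 and 139. In the several-gene cells the list was at 0.152, 0.493 and 0.182 of the level of the others.

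Lipid handling and phagocytosis genes were lower too, at 0.549, 0.290 and 0.419 of the level of the others, with 6 of 12, 12 of 15 and 9 of 15 genes called. Spp1, osteopontin, was at 31.8, 559.6 and 29.6 CPM against 1230.3, 2737 and 2730.1. Ctsl, cathepsin L, was at 22.7, 522 and 644 CPM against 733, 2404 and 2205. In the several-gene cells Ctsl stood at 25.8, 52.9 and 64.6 CPM, so most of its UMIs on days 6 and 10 lay in the cells with 1 or 2 score genes. Spp1 was at 62.5 CPM on day 6 in the several-gene cells in place of 559.6. The whole list was at 0.623, 0.191 and 0.303 in them.

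Classical monocyte genes were lower, by amounts that depended on the cells counted. The list summed to 4748, 5059.8 and 4187 CPM against 14656, 5263 and 5696, ratios of 0.324, 0.961 and 0.735, and 10 of 12, 5 of 11 and 5 of 11 genes were called lower. Hp, haptoglobin, had 0 UMIs in the day 3 cells against 512 CPM, and 30.5 and 11.4 CPM on days 6 and 10 against 68.6 and 149. Plac8 was at 236, 40.7 and 173 CPM against 2105, 375 and 371, and Chil3, a chitinase-like gene, at 209, 6.78 and 77.4 against 1542, 107 and 171. Thbs1, thrombospondin 1, had 2 UMIs in the day 3 cells, a ratio of 0.00290 (3.51e-04 to 0.0105), and was at 665 and 482 CPM on days 6 and 10 against 1131 and 1348. In the several-gene cells Thbs1 had 1, 3 and 6 UMIs and Chil3 1, 0 and 0. Median log2 ratios of the list were -2.72, -0.77 and -0.96 in the 51 cells and -4.08, -2.61 and -3.07 in the several-gene cells, with 10 of 12, 7 of 11 and 7 of 11 genes called lower in the latter. The sums of the several-gene cells came to 4458, 4334 and 3602 CPM, at 0.305, 0.821 and 0.632 of the others, and S100a4 made up 2969.6, 3042 and 2108 CPM of them.

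Interferon response genes were lower on days 3 and 6. The list was at 0.289 of the level of the others on day 3 (13 of 16 lower), at 0.118 on day 6 (9 of 10) and at 0.802 on day 10 (1 of 4 lower and 1 higher). Rsad2, an antiviral enzyme, had 3, 0 and 3 UMIs in the selected cells, or 13.6, 0 and 6.83 CPM, against 211, 148 and 27.9. The several-gene cells were at 0.173, 0.111 and 0.870.

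Inflammatory genes showed how far the selection on a single gene set the sums. In the 51 cells the list of inflammatory cytokines and enzymes was at 0.363, 0.693 and 0.861 of the level of the others, with 5, 1 and 2 of 11 genes called lower. In the several-gene cells it was at 0.118, 0.0101 and 0.0763, with 11 of 11 lower on each day. Tnf, the cytokine, was at 449, 1139 and 250.3 CPM in the 51 cells, against 267, 477 and 238, and at 32.2, 28.8 and 14.7 CPM in the several-gene cells. By cell, 13 of the 18 single-gene cells had at least 3 Tnf UMIs (72.2%), against 1 of the 31 several-gene cells (3.23%) and 25.9% of the other kept cells. Cxcl3, a neutrophil chemokine, was at 90.8, 312 and 375 CPM in the 51 cells and had 0 UMIs in the several-gene cells on each day. The hypoxia list moved in the same way, from ratios of 0.720, 0.590 and 0.557 in the 51 to 0.291, 0.199 and 0.211 in the 31. Vegfa, the endothelial growth factor, was at 198 CPM on day 10 in the 51 cells and at 47.0 in the 31, against 464 in the others.

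**Figure D5:**
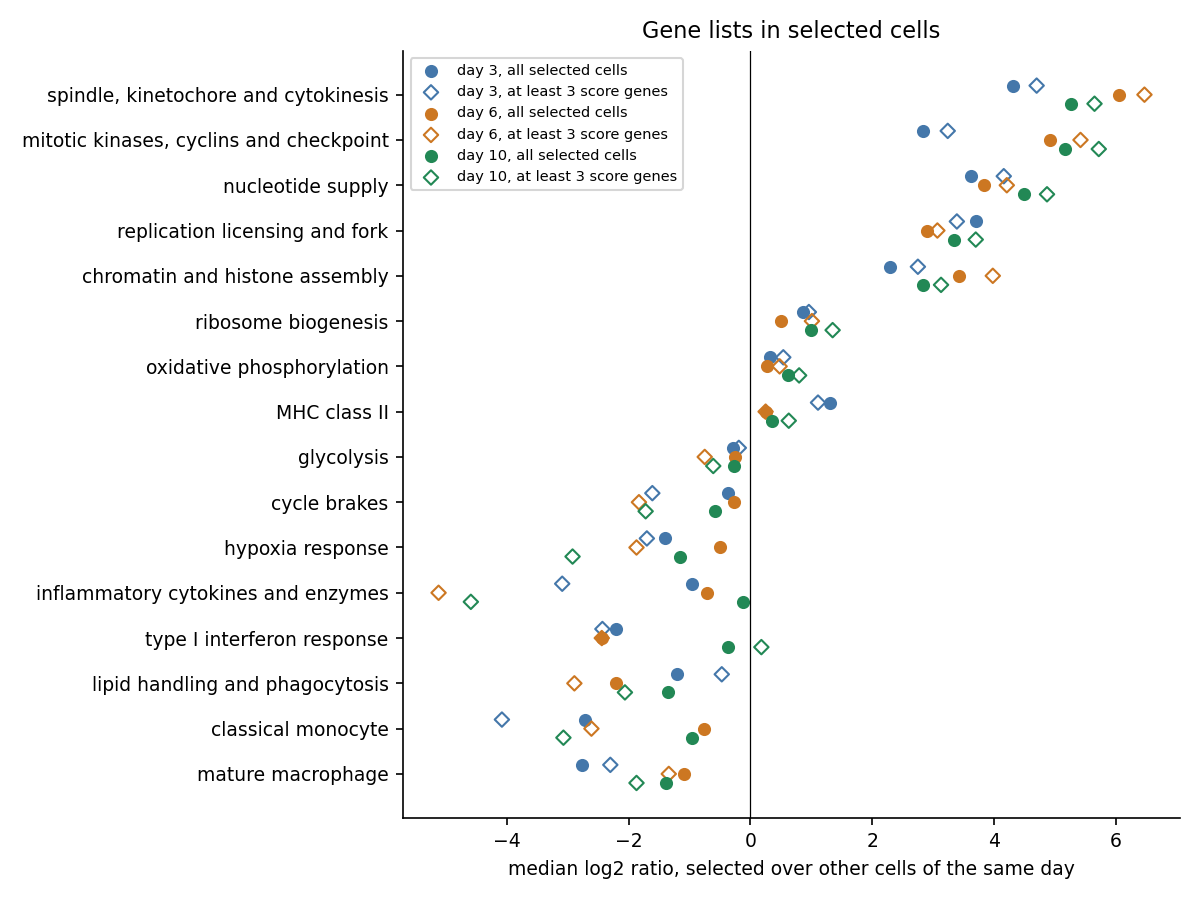
Median log2 ratio of the summed levels in selected over other cells of the same day (horizontal) for 16 gene lists, with circles for the 51 selected cells and open diamonds for the 31 several-gene cells, coloured by day. Cycle lists lie to the right in both, and the inflammatory, hypoxia and cycle brake lists lie farther left for the several-gene cells.

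The lists were also compared within a kind of cell, first among cells with that identity gene alone. Against 19 Retnla cells outside the selection, the 9 several-gene Retnla cells had a spindle list 10.3-fold higher (9.01 to 11.9) and a replication list 10.3-fold higher (7.52 to 14.3), with oxidative phosphorylation at 1.10 and glycolysis at 0.964. Their mature macrophage list was at 0.765, with 0 of 4 genes called, and their inflammatory list at 0.728, with 1 of 4 called lower. Against 340 Cd209a cells, the 7 several-gene Cd209a cells had a spindle list 9.92-fold higher (9.31 to 10.6), a mature macrophage list at 0.778 and MHC class II at 0.812, with 0 of 8 called, but an inflammatory list at 0.118 with 6 of 6 lower. Against 873 C1qa cells, the 7 several-gene C1qa cells had a spindle list 12.2-fold higher (11.4 to 13.1), an inflammatory list at 0.0333 (0.0247 to 0.0441, 9 of 11 lower), lipid handling at 0.172 (13 of 16 lower), hypoxia at 0.132 (9 of 11 lower) and glycolysis at 0.395 (10 of 12 lower). Their resident dermal macrophage list was at 1.47 (1.32 to 1.63), with 4 of 11 higher and 1 lower. Cell 2 of day 6 gave 138 of the 352 UMIs of this list. Days were pooled in these comparisons, which mixes the days of the cells compared. The values depended on this and on the cells counted. By day, cells that also carried another identity gene and selected cells with 1 or 2 score genes were counted in. On day 6 the resident dermal macrophage list of the selected C1qa cells was then at 1.32 (3 of 11 higher and 1 lower). On day 10 it was at 0.489 (6 of 9 lower). Their inflammatory list was at 0.545 and 1.65. The selected Cd209a cells had an inflammatory list at 1.36, 0.105 and 0.0548 on days 3, 6 and 10. With the same cells counted in, the 5 selected Retnla cells of day 10 against 19 had a mature macrophage list at 0.0986 (8 of 9 lower). Their resident dermal macrophage list was at 0.0660 (10 of 10 lower) and their inflammatory list at 17.6 (2 of 2 higher). Cell 8 of day 10 gave 304 of the 322 UMIs of that inflammatory list. The same cell gave 304 of the 446 inflammatory UMIs of the 9 pooled Retnla cells. The 3 selected Retnla cells of day 3 against 4 had the mature macrophage list at 0.313 (5 of 6 lower). Their inflammatory list was at 0.868 (1 of 3 lower and 1 higher).

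Between days, the selected cells of day 10 and day 3 differed at least 2-fold higher in 9.98% of 3267 genes and at least 2-fold lower in 7.44%. Genes higher on day 10 included Arg1, the enzyme arginase, which had 1 UMI on day 3 and was at 1358 CPM on day 10, but at 29.4 CPM in the day 10 several-gene cells. C1qa was at 36.3 and 503 CPM, while in the other cells it was at 293 and 1277 CPM. Ctsk was at 0 and 491 CPM, with 214 of the 216 UMIs from 1 cell. Genes lower on day 10 included Il1r2, the decoy interleukin-1 receptor, at 527 and 27.3 CPM, Cd83, a maturation marker of dendritic cells, at 563 and 45.5, and Cxcl10, an interferon-induced chemokine, at 313 and 43.2. In the several-gene cells Il1r2 was at 51.5 and 26.4 CPM, Cd83 at 122 and 32.3 and Cxcl10 at 438 and 17.6. Cell 6 of day 3 had 74 UMIs of the interferon list that holds Cxcl10, and the other several-gene cells of that day had 2 to 15. The make-up of the selected cells by identity moved between these days as given above, and its part in these differences was not tested.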

How the data were processed

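The deposited matrices hold UMI counts per gene and barcode, raw whole numbers that the authors did not normalise. Cell Ranger 3.0.2 and the mm10 build were used, per the submitters' processing notes, and which gene annotation was counted is not stated there. Library totals were 11199361, 9273960 and 13972817 UMIs. The selected cells summed to 220291, 294871 and 439472 UMIs, so a count of 1 UMI in their sum is worth 4.54, 3.39 and 2.28 CPM on days 3, 6 and 10.

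Barcodes with at least 200 genes, under 10% mitochondrial UMIs and at least 2000 UMIs were kept, scored and selected by the rule given at the start, with no clustering. Doublets were scored per library with Scrublet (scanpy 1.11.5) and kept. UMIs were summed over selected and other cells of each day and compared as CPM (Python 3.11.15, numpy 2.4.6, pandas 2.3.3, scipy 1.17.1, matplotlib 3.10.9). A gene with at least 50 CPM in 1 sum was compared. A sum under 3 UMIs was set to 3 for log2 ratios. CPM have exact Poisson, ratios conditional binomial and shares Clopper-Pearson intervals of 95%. No test was run, since each day has 1 library. Shares of cells with an identity gene were read after thinning each cell to 2000 UMIs. The steps were tested on simulated data. No paired analysis is part of the design.

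Genes named are the 8 score genes, the 4 identity genes, the 12 highest and 12 lowest by mean log2 ratio of the 3 days, the 12 highest outside the cycle lists, the 10 highest and 10 lowest between days 10 and 3 with at least 200 CPM in 1 sum, and of each of the 38 gene lists the 2 with the largest ratio in each direction that reached 50 CPM on at least 1 day. Not every gene that meets this rule is reported here. Markers named for single cells were chosen after their values were seen. The cells, lists and rules were chosen with earlier results of these data known. Selected cells with at least 3 score genes, and those without 3 UMIs of Ncr1 or Cd207, were added as alternatives after the data were seen. Other alternatives changed the threshold, the limits on cells, the score, the thinning and the CPM minimum, and the mean of cells' own CPM or ratios centred on all genes replaced the sums.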

Additional observations from a re-analysis of the deposited data

Results flagged for a closer look

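Barcodes outside the limits on cells also held score genes. Of 593, 645 and 937 left-out barcodes, 4, 22 and 18 reached the threshold of 2.22 with at least 3 score UMIs on days 3, 6 and 10 (0.675%, 3.41% and 1.92%). The median mitochondrial share of the left-out barcodes past the rule was 25.4%, 23.7% and 25.7%, and 1, 5 and 6 of them had at least 3 Retnla UMIs. They enter no comparison above.

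Some genes differed from the other cells in opposite directions on different days, which was not tested with 1 library a day. Il1r2 had a ratio of selected to other cells of 4.30 on day 3, 0.252 on day 6 and 0.325 on day 10, and the several-gene cells had 0.388 on day 3. Cd83 had ratios of 2.09, 0.493 and 0.257, and the several-gene cells 0.440 on day 3. Ctsk had a ratio of 0.111 on day 6 and 4.75 on day 10, and Acp5 one of 0.282 on day 6 and 3.02 on day 10, where 1 cell gave most of the UMIs of both. Ly6c2 had a ratio of 0.0311 on day 3 and of 3.52 on day 6, where 1 cell gave 55 of 56 UMIs.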

How the results depend on the processing

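No paired analysis was possible because each day has 1 library and no result comes from a test. Among the list medians and the genes Retnla, Fcrls, Spp1, Apoe, Thbs1 and Knstrn, each as the mean of the 3 days, none changed sign under an alternative run except type 2 activation, which went from -0.24 to 0.45 (log2) with no CPM minimum. Il1r2, Cd83 and Tnf had ratios under 1 on day 3 in the several-gene cells (0.388, 0.440 and 0.117). Selecting by the mitotic list gave 2.73% of the day 3 cells in place of 1.14%, with Retnla in 4.17% of them, and selecting several-gene cells gave 1.26% on day 10. Shares resting on 1 to 5 cells moved most. Ly6c2 was in 0% of the selected cells on day 3 with the top 2%, with a minimum of 5 score UMIs, with 3 score genes or with another thinning seed. It was in 0% on day 10 with 5 score UMIs, a mitochondrial limit of 5% or 20%, 3 score genes or 2 UMIs after thinning, and on day 6 without the Ncr1 and Cd207 cells. C1qa was in 0% on day 3 with a mitochondrial limit of 20%, 2 UMIs after thinning or another seed, and Cd209a in 14.3% on day 3 with the 20% limit. As a share of the cells carrying the gene, the same changes other than the seed gave 0% for Ly6c2 and for C1qa on day 3. The mitotic list gave 2.01% for Ly6c2 on day 3, the 20% limit 0.847% for Cd209a on day 3, and 3 score genes 0.492% for C1qa on day 10.

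Counts of genes depended on the selection and the CPM minimum. On day 3, 368 genes were 2-fold higher and 384 lower. These were 602 and 583 with the top 2% or with 3 score genes, 191 and 165 with the mitotic list, 160 and 212 at 100 CPM and 2873 and 602 with no minimum. On day 6, 465 were higher and 271 lower. These were 263 higher with the top 5%, 767 and 505 with 3 score genes, 195 and 163 at 100 CPM and 2188 and 509 with no minimum. On day 10, 362 were higher and 265 lower. These were 154 lower with the mitotic list, 471 lower with 3 score genes, 170 and 146 at 100 CPM and 2045 and 691 with no minimum. Between days 10 and 3, 326 genes were higher and 243 lower, and 117 and 119 at 100 CPM. With 10, 15 and 26 selected cells, single cells decide many sums, and a gene under 3 UMIs in them was not detectable as lower unless common elsewhere.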
